A study of Mus musculus with 10 samples.

Results

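Delta cells are the somatostatin-secreting cells of the pancreatic islet. Only delta, alpha and beta libraries were at hand, so levels in other cell types are not known here. The 6 genes described, Cd24a, Ly6h, Ptprz1, Spock3, Sftpd and Ppp1r17, had far more RNA in delta than in alpha and beta libraries. They were chosen by name from 19213 gene entries of a deposited expression table because their values in delta libraries stood far above those in alpha and beta libraries. Their delta levels and their delta to alpha and delta to beta differences are therefore a description, given without a test. All 6 were among the 12700 genes tested, which had a value of at least 1 RPKM (reads per kilobase of a gene's length, relative to all reads of the library) in at least 2 libraries, 5 of them only because of the delta libraries, while Cd24a would have passed in any group.

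RNA was sequenced from sorted islet cells of adult mice whose beta cells carried an H2b-mCherry reporter under the mouse Ins1 promoter. The 2 delta libraries came from triple transgenic offspring with Sst-Cre and a floxed YFP allele, and the 3 alpha libraries from offspring with Gcg-cre and the same floxed allele. The 5 beta libraries held mCherry-positive cells sorted from the same islets. Each pool joined the islets of 10 to 12 animals of one sex, which were cultured overnight at 5.5 mM glucose before the sort. All groups thus carried both reporters and a Cre, and the delta and alpha groups differ in the Cre as well as in the cell type. A floxed reporter marks every cell in which the Cre was ever active. Delta cells had 1 male (replicate 1) and 1 female library (replicate 2), alpha cells 2 male (replicates 1 and 2) and 1 female library (replicate 3), and beta cells 2 male (replicates 1 and 3) and 3 female libraries (replicates 2, 4 and 5). No label states which beta library came from which cross. By consecutive title numbers and sex, beta replicates 1 and 2 stand next to delta replicates 1 and 2, and beta replicates 3 and 5 next to alpha replicates 2 and 3. They do not say that libraries of one group came from separate pools, so p-values reflect how these libraries scatter, and that scatter may be technical.

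Delta cells hold the alpha and beta cells of an islet in check through somatostatin, and they are few, so surface proteins that mark them and proteins that they release are of use for finding and sorting them. Cd24a encodes a short, heavily glycosylated protein held on the outer membrane by a lipid (GPI) anchor. Ly6h encodes a GPI-anchored protein of the Ly6 family of three-finger proteins, known in brain for its effect on nicotinic acetylcholine receptors. Ptprz1 encodes a receptor-type tyrosine phosphatase that also carries chondroitin sulfate and that binds the growth factor pleiotrophin. Spock3 encodes testican-3, a secreted proteoglycan of the extracellular matrix, and Sftpd encodes surfactant protein D, a secreted lectin of the collectin family known from the lung. Ppp1r17 encodes G-substrate, an inhibitor of protein phosphatases known from Purkinje neurons. It is an intracellular protein, so the description of the set as surface and secreted genes holds for 5 of the 6 and not for Ppp1r17.

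Library totals lay between 16688097 and 26684086 reads. Sst, which encodes somatostatin, averaged 56579 ± 5927 RPKM in delta (SD, n = 2), 1829 ± 979 in alpha (n = 3) and 422 ± 324 in beta libraries (n = 5). Of the 8 delta markers listed, 7 had a mean of at least 1 RPKM in delta libraries, the exception being Lepr at 0.0321 RPKM. The delta libraries also held RNA of marker genes of other endocrine types. Markers of pancreatic polypeptide and epsilon cells, a list of 4, summed to 44167 to 44801 RPKM in delta, 9607 to 15258 in alpha and 809 to 1560 in beta libraries. Pyy averaged 26935 and Ppy 17546 RPKM in delta libraries, against 6607 and 5268 in alpha libraries. The other markers were lower in delta than in alpha libraries, Ghrl at 1.34 against 4.55 and Sertm1 at 1.79 against 7.02 RPKM. Of the 4, 2 were called higher and 1 lower in delta than in alpha cells. Gcg averaged 22243 RPKM in delta against 255163 in alpha libraries. Whether delta cells or other endocrine cells held this RNA was not tested, nor was the part of other cells in the levels below. In bulk samples, fewer cells of a type and less RNA per cell cannot be told apart.

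Cd24a (chromosome 10, 43578284 to 43584265, plus strand, GRCm38) was the most abundant of the 6. It stood at 567 and 557 RPKM in delta replicates 1 and 2, at 15.5, 8.55 and 10.4 RPKM in alpha replicates 1 to 3, and at 10.2, 9.53, 14.5, 19.8 and 20.0 RPKM in beta replicates 1 to 5. The delta libraries were far above all others and nearly equal to each other, while the alpha and beta ranges overlapped. Cd24a ranked 36 of 12700 genes by its delta mean. The delta mean was 49.0 times the alpha mean and 38.0 times the beta mean, with 20807 and 18777 reads behind the delta values. Even its lowest value rested on 262 reads. Of the 6 it was the only one with over 5 RPKM in any alpha or beta library. Its transcript shares a stretch of 259 bases at 92.3% identity with the processed pseudogene Gm15352 and of 218 bases at 96.8% with Gm6212, and the sources used here do not give how reads that fit several places were counted, so its level is uncertain to that extent. No other transcript matched any of the 6 over at least 200 bases at 90% identity or more.

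Ly6h (chromosome 15, 75551268 to 75567255, minus strand) stood at 46.4 and 73.2 RPKM in delta replicates 1 and 2. Its alpha values were 1.23, 0.217 and 0.419 RPKM in replicates 1 to 3, and its beta values 0.139, 0.269, 0.206, 0.283 and 0.767 RPKM in replicates 1 to 5. Alpha replicate 1 and beta replicate 5 were the high libraries of their groups, and the alpha and beta ranges overlapped. The delta mean of 59.8 ± 18.9 RPKM (SD, n = 2) was 96.4 times the alpha mean and 180 times the beta mean. The lowest alpha and beta values rested on 5 reads each.

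Ptprz1 (chromosome 6, 22875502 to 23052916, plus strand) stood at 43.6 and 44.7 RPKM in delta replicates 1 and 2, with 7104 and 6702 reads. It stood at 1.17, 0.426 and 0.618 RPKM in alpha replicates 1 to 3 and at 0.0425, 0.101, 0.209, 0.267 and 0.553 RPKM in beta replicates 1 to 5. The delta values were nearly equal, alpha replicate 1 was the highest of the other libraries, and beta replicate 5 lay within the alpha range, so that the alpha and beta groups overlapped. The delta mean of 44.2 ± 0.822 RPKM was 59.7 times the alpha mean of 0.739 ± 0.388 RPKM and 188 times the beta mean of 0.235 ± 0.198 RPKM (SD, n = 2, 3 and 5).

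Spock3 (chromosome 8, 62951009 to 63357103, plus strand) stood at 16.5 and 24.3 RPKM in delta replicates 1 and 2, at 0.913, 0.126 and 0.262 RPKM in alpha replicates 1 to 3, and at 0.0116, 0.0250, 0.120, 0.131 and 0.297 RPKM in beta replicates 1 to 5. Of the 6 genes it had the narrowest gap between delta and other libraries, through alpha replicate 1. Beta replicates 4 and 5 lay within the alpha range, and the values of beta replicates 1 and 2 rested on 1 and 2 reads. The delta mean of 20.4 ± 5.50 RPKM was 47.0 times the alpha mean and 174 times the beta mean (SD, n = 2).

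Promoter windows from RefSeq (GRCm38.p6), 250 bases before and 50 after a gene's start, were at hand for Ptprz1 and Spock3. They are shown because windows were matched for these 2 of the 6 genes only. The Ptprz1 window is chr6:22875252-22875551 and that of the second of 2 Spock3 starts is chr8:62951095-62951394, both on the plus strand, with matches to the searched motifs in capitals.
Ptprz1: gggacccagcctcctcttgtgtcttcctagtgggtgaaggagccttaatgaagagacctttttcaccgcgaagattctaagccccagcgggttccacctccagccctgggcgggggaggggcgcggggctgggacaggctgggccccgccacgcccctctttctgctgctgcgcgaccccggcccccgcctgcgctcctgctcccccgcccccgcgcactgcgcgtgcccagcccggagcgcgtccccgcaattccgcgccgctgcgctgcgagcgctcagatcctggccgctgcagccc
Spock3: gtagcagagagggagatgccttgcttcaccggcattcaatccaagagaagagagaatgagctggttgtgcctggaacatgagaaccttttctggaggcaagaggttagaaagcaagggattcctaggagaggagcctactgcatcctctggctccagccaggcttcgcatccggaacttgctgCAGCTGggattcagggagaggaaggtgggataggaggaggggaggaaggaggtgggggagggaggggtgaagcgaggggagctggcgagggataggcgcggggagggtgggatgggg
Both strands were searched for 4 motifs of 6 bases. The homeodomain motif TAATTA was in 5.29% of all 32851 such windows, and the related motif TAATTG in 8.00%. The motif CAGATG, which basic helix-loop-helix factors can bind, was in 17.2% of the windows, and its relative CAGCTG in 16.3%. The printed Spock3 window held 1 match, a CAGCTG that begins 67 bases before the start, and none of the 4 motifs occurred in the Ptprz1 window. The window of the other Spock3 start, chr8:62950982-62951281, held no whole match. It overlaps the printed window and ends inside the same CAGCTG, so the 2 starts do not differ in that motif. G and C made up 71.7% of the Ptprz1 and 59% of the printed Spock3 window, against a mean of 53.8% over all windows.

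Sftpd (chromosome 14, 41172214 to 41185149, minus strand) stood at 29.2 and 23.5 RPKM in delta replicates 1 and 2, at 0.226, 0.223 and 0.259 RPKM in alpha replicates 1 to 3, and at 0.230, 0.278, 0.212, 0.292 and 0.283 RPKM in beta replicates 1 to 5. Its alpha and beta values, of 5 to 10 reads each, lay within one narrow band and showed no high library. The delta mean of 26.3 ± 4.01 RPKM was 112 times the alpha mean and 102 times the beta mean (SD, n = 2).

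Ppp1r17 (chromosome 6, 56017497 to 56032689, plus strand) stood at 25.5 and 17.6 RPKM in delta replicates 1 and 2, at 0.379, 0.136 and 0.297 RPKM in alpha replicates 1 to 3, and at 0.0219, 0.0236, 0.0972, 0.149 and 0.0431 RPKM in beta replicates 1 to 5. Beta replicate 4 was the only beta library within the alpha range. Its beta values rested on 1 to 6 reads per library. The delta mean of 21.6 ± 5.55 RPKM was 79.6 times the alpha mean and 322 times the beta mean (SD, n = 2). In the annotation used, no exon of another gene overlapped an exon of any of the 6, though a small nucleolar RNA gene, Gm24236, lies within the Spock3 locus on the other strand, which these libraries cannot tell apart.

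**Figure D1:**
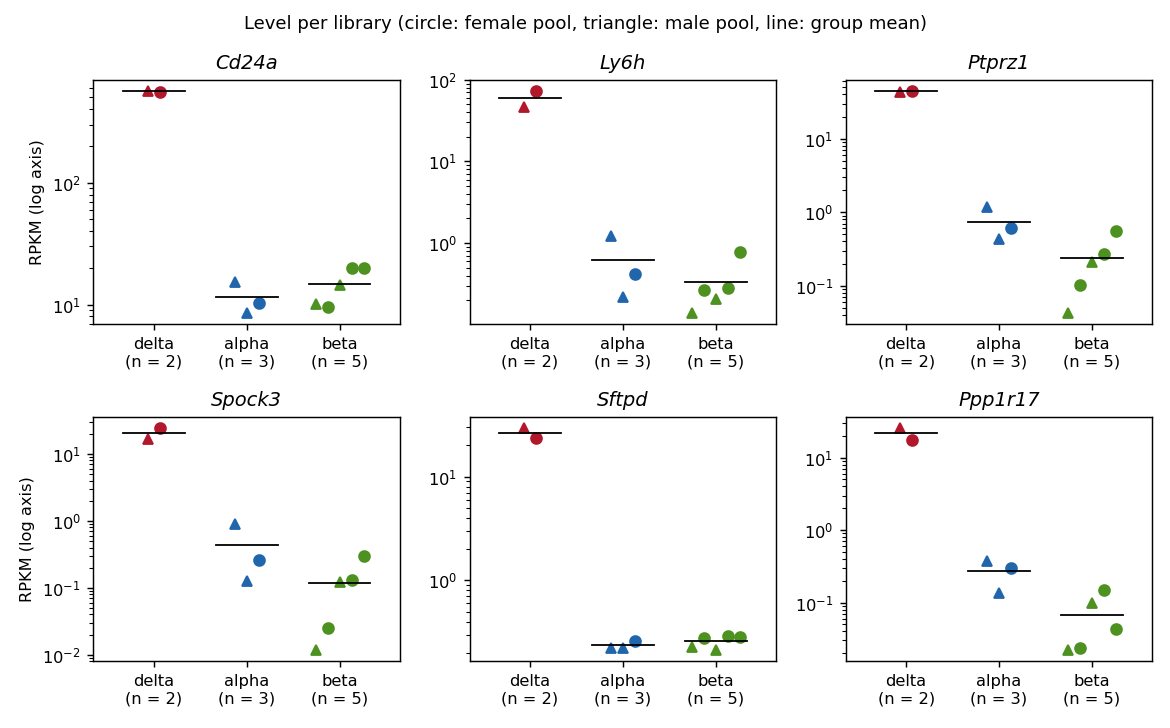
RPKM of the 6 genes in each library on log axes, with delta, alpha and beta libraries from left to right, circles for female and triangles for male pools, and a line at the group mean. The delta points lie above every other point in each panel, and the spread among alpha and beta libraries is narrow for Sftpd and wide for Spock3 and Ptprz1.

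In all 6 genes the lowest delta library exceeded the highest alpha or beta library by at least 10-fold, a gap of the kind they were chosen for. Of all tested genes, 32.4% had their lowest delta value above every alpha and beta value, and 108, or 0.85%, by at least 10-fold. By this ratio Sftpd ranked 2 of 12700 with 80.5, Ppp1r17 ranked 4 with 46.5, Ly6h ranked 7 with 37.9, Ptprz1 ranked 8 with 37.1, Cd24a ranked 29 with 27.8 and Spock3 ranked 57 with 18.1. Sst itself ranked 61 with 17.8. Alpha replicate 1 set the ratio of 4 of these genes, and without it the ratio was 60.5 for Ly6h, 70.5 for Ptprz1, 55.6 for Spock3 and 59.4 for Ppp1r17. Without delta replicate 1 the Ly6h ratio was 59.7.

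**Figure D2:**
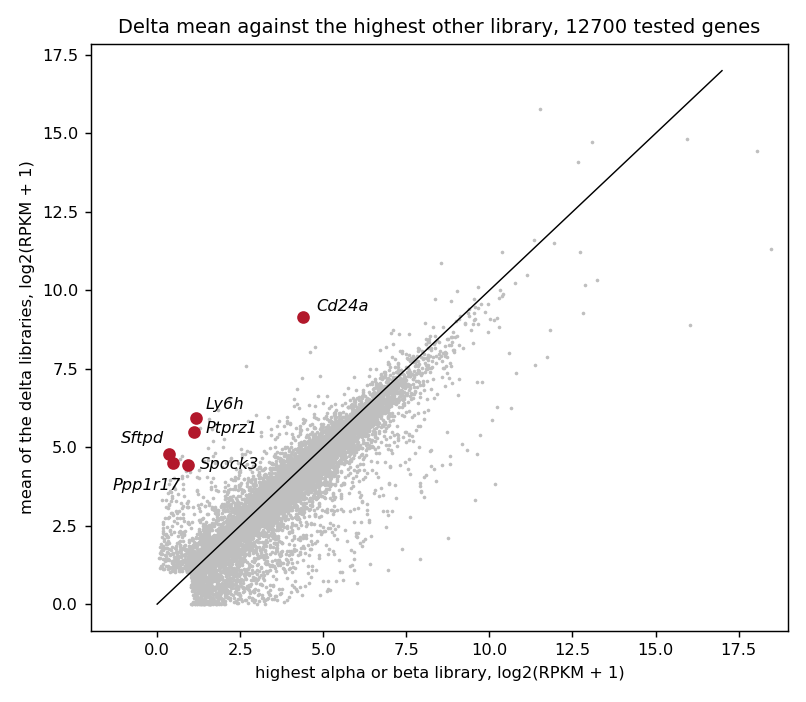
Mean of the 2 delta libraries against the highest of the 8 alpha and beta libraries for 12700 tested genes, both as log2(RPKM + 1), with the line of equal values and the 6 genes in red. Cd24a lies at high levels on both axes, while the other 5 lie at the left edge, with highest values under 2 RPKM in the other libraries.

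The level left in alpha and beta libraries was set beside that of Sst, each as a percent of its own delta mean. Sst stood at 5.19%, 1.91% and 2.60% in alpha replicates 1 to 3 and at 0.176%, 0.354%, 0.624%, 0.946% and 1.63% in beta replicates 1 to 5. Alpha replicate 1 was the highest of the alpha libraries and beta replicate 5 the highest of the beta libraries. The beta libraries numbered next to the delta libraries, replicates 1 and 2, were the lowest in Sst, and the part of the cross in these levels was not tested. Ptprz1 stood at 2.66%, 0.965% and 1.40% in the alpha libraries and at 0.0963%, 0.230%, 0.474%, 0.604% and 1.25% in the beta libraries. Spock3 stood at 4.48%, 0.619% and 1.28% in the alpha and at 0.0570%, 0.122%, 0.589%, 0.643% and 1.46% in the beta libraries. Both genes kept the order of Sst among the alpha libraries and among the beta libraries, and both lay below the Sst percentage in 8 of 8 libraries. Ppp1r17 also lay below it in 8 of 8.

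Within the alpha libraries, 5 of the 6 genes had the order of Sst, which 8.03% of tested genes had, and the exception was Sftpd. Within the beta libraries 2 of the 6 had it, against 10.8% of tested genes. Both orders held for 35 tested genes, or 0.276%, Ptprz1 and Spock3 among them. Ly6h lay below the Sst percentage in 6 of 8 libraries and Sftpd in 4 of 8. Cd24a lay below it in the 3 alpha libraries and above it in the 5 beta libraries, where it reached 1.70% to 3.56% of its delta mean.

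Cd24a was thus the one gene of the 6 that exceeded the Sst percentage in every beta library. Sftpd exceeded it in beta replicates 1 to 4 and Ly6h in beta replicates 1 and 2, with values of 5 to 9 reads each. The part of delta RNA in the alpha and beta levels was not tested.

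**Figure D3:**
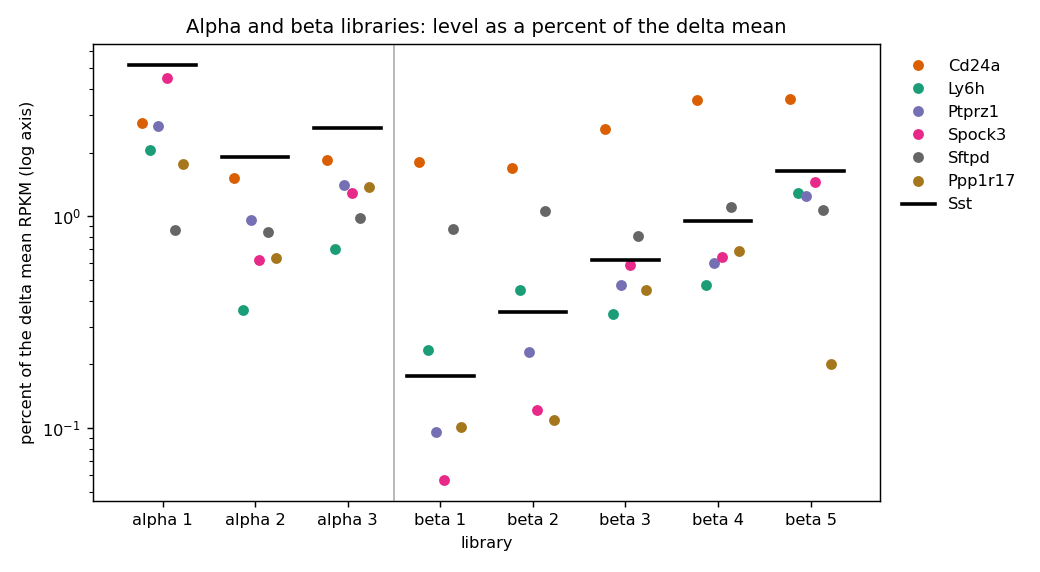
Level of the 6 genes in the 3 alpha and 5 beta libraries as a percent of the delta mean, on a log axis, with black bars for Sst. Ptprz1, Spock3 and Ppp1r17 lie under the bar in every library shown, and Cd24a lies over it in the 5 beta libraries.

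The difference between alpha and beta cells was set beside these levels in a limma fit over all 12700 genes, on log2(RPKM + 1) with sex as a term. Of the 6 genes 1 was called, and of all tested genes 54%. Nothing is read from that contrast, its calls or its p-values, since the genes were chosen for low values in both cell types. All but Cd24a also passed the filter only through the delta libraries. The 1 call was Ptprz1, with alpha libraries 0.51 above beta libraries on the log2 scale (SE 0.17, adjusted p = 0.0324 by limma). Of its 8 alpha and beta values, 7 were under 1 RPKM. That call was lost without alpha replicate 1 (adjusted p = 0.0980) or 3 (0.0625), without beta replicate 1 (0.0851), 2 (0.0558), 3 (0.0588) or 4 (0.0521) and without the filter on low values (0.0529). It was also lost when a delta share set by Sst was subtracted, which put Ptprz1 at 0 in every alpha and beta library. With libraries of consecutive title numbers as pairs it was lost as well (0.15, adjusted p = 0.399 by limma). There Cd24a was called as lower in alpha cells (-0.79, adjusted p = 0.00112 by limma). Without such pairs Cd24a differed by -0.28 (SE 0.28). The log2 fold changes were 0.31 (SE 0.23) for Ly6h, 0.36 (SE 0.19) for Spock3, 0.23 (SE 0.13) for Ppp1r17 and -0.03 (SE 0.10) for Sftpd, and these 4 and Cd24a had adjusted p-values of 0.150 to 0.808 by limma. With a pseudocount of 0.1 in place of 1, Ppp1r17 was called as higher in alpha cells (1.15, adjusted p = 0.0241 by limma). By mean level, the order was delta, alpha, beta for Ly6h, Ptprz1, Spock3 and Ppp1r17, and delta, beta, alpha for Cd24a and Sftpd. At these levels a missing call does not show that alpha and beta cells are alike.

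Sex played no part in the choice of the genes. Of the 6, 0 were called between female and male libraries by limma, against 0.0472% of all tested genes, and 0 had an unadjusted p under 0.05. The log2 fold changes of female over male lay between -0.08 for Ppp1r17 and 0.22 for Ly6h (adjusted p = 0.784 to 0.960 by limma). Delta cells had 1 library per sex, so a sex difference in delta cells cannot be told apart from a difference between libraries. There the female library had 1.58 times the Ly6h level and 1.47 times the Spock3 level of the male library, 0.806 times its Sftpd level and 0.692 times its Ppp1r17 level. Cd24a and Ptprz1 differed little, at 0.982 and 1.03 times. Among the genes with a delta mean of at least 10 RPKM, the median difference between the pair of delta libraries was 1.06-fold, and a difference as large as that of Ly6h was found in 0.954%, of Spock3 in 1.34%, of Ppp1r17 in 1.54% and of Sftpd in 5.62% of genes.

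Over the 10 libraries, Pearson's r of log2(RPKM + 1) between pairs of the 6 genes was 0.981 to 0.999, with a median of 0.986 over 15 pairs. All pairs share the gap between delta and other libraries, which their choice fixed. The genes most like Ptprz1 were Ghsr, the ghrelin receptor (r = 0.999, 48.4 RPKM in delta, 0.842 in alpha and 0.263 in beta libraries), and Luzp2 (r = 0.999). Ly6h was most like the elongation factor gene Tcea3 and the calcium channel subunit gene Cacna2d2 (both r = 0.997), and Spock3 most like Loxl1, a lysyl oxidase relative, and the growth factor gene Bmp3 (both r = 0.998). Ppp1r17 was most like the growth factor gene Bmp6 and Ankrd34b (both r = 0.999), Sftpd like the transcription factor gene Sox11 and Ccdc60 (both r = 0.999), and Cd24a like Nsg1, which acts in neuronal endosomes (r = 0.995), and Magee2 (r = 0.994). Bmp3 averaged 42.4 ± 3.44 RPKM in delta, 0.703 ± 0.528 in alpha and 0.278 ± 0.126 in beta libraries, while Sox11 averaged 1.77 ± 0.0583 RPKM in delta, 0.0347 ± 0.0132 in alpha and 0.0120 ± 0.00959 in beta libraries.

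Related genes, in lists that leave out the 6, were read against all tested genes, of which 37.4% were called higher and 13.3% lower in delta cells than in beta cells, and 32.1% higher and 5.89% lower in delta than in alpha cells. Median-ratio scaling of the libraries moved the median log2 fold change over all tested genes to 0.01 against beta cells (0.25 as deposited) and to -0.02 against alpha cells (0.26 as deposited). The share of higher genes among the calls was then 50.7% against beta cells (73.7% as deposited) and 57.2% against alpha cells (84.5% as deposited). Of the 12700 genes, 3188 were then higher and 3094 lower against beta cells, and 1857 higher and 1391 lower against alpha cells. With libraries of consecutive title numbers as pairs, 6169 were higher and 1736 lower against beta cells, and 4749 and 594 against alpha cells. List counts under these settings are to be set beside these numbers. Leaving out a library also changed the counts over all genes, as given further below. Without the filter more genes of a list enter the test, and a filter of 5 RPKM takes some out, such as Ptn and Vcan. List counts under those 2 settings therefore have another base than the numbers tested given below. Both comparisons use the same delta libraries.

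Relatives of the phosphatase Ptprz1 were often higher in delta cells. Of 13 tested receptor-type tyrosine phosphatases, 9 were higher and 0 lower in delta cells than in beta cells (median log2 fold change 0.61, against 0.25 over all tested genes), and 6 higher and 1 lower under median-ratio scaling. Against alpha cells 11 were higher and 1 lower, and 7 and 1 under that scaling. Without delta replicate 1, 5 were higher against beta and 6 against alpha cells, and without alpha replicate 3, 7 were higher against alpha cells. Ptprk, an adhesion phosphatase, averaged 19.1 ± 1.82 RPKM in delta, 9.12 ± 0.336 in alpha and 0.446 ± 0.300 in beta libraries (higher than in beta libraries by 3.83 on the log2 scale, SE 0.17, adjusted p = 2.77e-07 by limma). Ptprg, the closest relative of Ptprz1, averaged 17.5 ± 1.95 RPKM in delta, 3.92 ± 0.892 in alpha and 1.92 ± 0.804 in beta libraries (2.74, SE 0.24, adjusted p = 1.96e-05 by limma). Ptprt was higher by 1.87 on the log2 scale, and Ptprf, at 89.8 RPKM in delta and 105 in beta libraries, was not called (adjusted p = 0.236 by limma).

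Ligands and partners of Ptprz1 went both ways. Of 14 tested, 7 were higher and 3 lower in delta cells than in beta cells (median 0.62), and 5 higher and 2 lower than in alpha cells (median 0.34, against 0.26 over all tested genes). With median-ratio scaling 5 were lower against beta cells, with an RPKM of at least 5 as the filter 4 were higher against beta and 3 against alpha cells, and without delta replicate 2, 3 were higher against alpha cells. Ptn, which encodes the ligand pleiotrophin, averaged 3.77 ± 0.695 RPKM in delta, 0.0874 ± 0.0301 in alpha and 0.0191 ± 0.0321 in beta libraries. On the log2 scale it was higher by 2.23 over beta (SE 0.10, adjusted p = 2.26e-07 by limma) and by 2.11 over alpha libraries (SE 0.11, adjusted p = 1.04e-06 by limma). Tnr, the matrix protein tenascin-R, averaged 31.8 ± 3.71 RPKM in delta, 29.8 ± 1.62 in alpha and 5.51 ± 1.93 in beta libraries. It was higher than in beta cells (2.42, adjusted p = 1.22e-05 by limma) and not called against alpha cells (0.02, SE 0.22, adjusted p = 0.954 by limma). The scaffold gene Magi3 was higher than in beta cells by 2.01 on the log2 scale, and Git1, at 31.2 RPKM in delta, 27.3 in alpha and 34.9 in beta libraries, was not called in either comparison.

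Among relatives of Spock3, 14 genes of the SPARC family and of proteoglycans were tested. Of these 10 were higher and 2 lower in delta cells than in beta cells (median 0.77), and 8 higher and 0 lower than in alpha cells (median 0.82). With an RPKM of at least 5 as the filter, which fewer of the 14 passed, 5 were higher against beta and 4 against alpha cells. Vcan, the matrix proteoglycan versican, averaged 2.03 ± 0.0351 RPKM in delta, 0.293 ± 0.0989 in alpha and 0.0543 ± 0.0371 in beta libraries (delta over beta 1.53, adjusted p = 1.55e-06 by limma). Gpc3, a GPI-anchored proteoglycan, was higher by 1.37 (adjusted p = 9.75e-06 by limma), while Sdc3, a membrane proteoglycan, was lower, at 1.64 ± 0.347 RPKM in delta, 1.02 ± 0.0871 in alpha and 10.8 ± 1.35 in beta libraries (-2.16, adjusted p = 3.58e-06 by limma). Smoc1 stood at 6.67 RPKM in delta, 1.51 in alpha and 5.23 in beta libraries. It was called against alpha cells (1.65, adjusted p = 0.000186 by limma) and not against beta cells (adjusted p = 0.184 by limma).

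Few relatives of Ly6h were tested, and their calls changed with the setting. Of 7 tested genes of the Ly6 and uPAR family, 2 were higher and 0 lower in delta cells than in beta cells (median 0.46), and 3 higher and 2 lower than in alpha cells (median 0.64). Without delta replicate 1, 1 was higher against beta cells, and without delta replicate 1 or 2, 1 was higher and 0 were lower against alpha cells. Without alpha replicates 1, 2 or 3, 2 were higher against alpha cells, without alpha replicate 3, 1 was lower against them, and without alpha replicate 1, 3 were higher and 1 lower against beta cells. Under median-ratio scaling 0 were higher against alpha cells. With no filter, where more than these 7 genes of the list entered the test, 9 were higher in each comparison. With title pairs 4 were higher and 1 lower against beta cells. Ly6e, an interferon-induced member, averaged 187 ± 19.2 RPKM in delta, 121 ± 26.5 in alpha and 103 ± 18.6 in beta libraries (delta over beta 0.84, SE 0.19, adjusted p = 0.00538 by limma). Lypd8, known from colon epithelium, was also higher than in beta cells (0.95, adjusted p = 0.00204 by limma), and Cd59a, which protects cells from complement, was not called (0.87, adjusted p = 0.0693 by limma). Nicotinic receptor subunits were mostly below the filter, with 2 of 16 tested. Of these Chrnb1, at 2.16 RPKM in delta and 0.575 in beta libraries, was higher than in beta cells (1.02, adjusted p = 0.00139 by limma), and Chrnb2, at 16.8 RPKM in delta and 17.5 in beta libraries, was not called (adjusted p = 0.727 by limma). Against alpha cells 1 was higher, and 0 under median-ratio scaling.

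Of the collectins and surfactant proteins other than Sftpd, 1 of 10 passed the filter. Sftpa1, surfactant protein A, averaged 0.857 ± 0.225 RPKM in delta, 1.10 ± 0.444 in alpha and 0.213 ± 0.124 in beta libraries. It was higher in delta than in beta cells (0.63, SE 0.17, adjusted p = 0.0126 by limma) and not called against alpha cells, and without delta replicate 1 it was not called against beta cells. With no filter, where more genes of the list entered the test, 2 were higher and 1 lower than in beta cells.

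The phosphatase group of Ppp1r17 gave few calls against beta cells. Of 17 tested catalytic subunits and inhibitors of the phosphatases PP1 and PP2A, with the kinases of G-substrate, 2 were higher and 2 lower in delta cells than in beta cells (median -0.04), and 6 higher and 1 lower than in alpha cells (median 0.26, as over all tested genes). Without delta replicate 1 or 2, 1 was higher and 1 lower against beta cells, and 1 was higher also without alpha replicate 1, 2 or 3 or beta replicate 1 or 3. Under median-ratio scaling 1 was higher and 5 were lower against beta cells, and 2 were higher and 2 lower against alpha cells. Without beta replicate 5, 2 were lower against alpha cells. With title pairs 5 were higher and 3 lower against beta cells, and 8 higher and 3 lower against alpha cells. Ppp1r1a, an inhibitor of PP1, averaged 23.5 ± 3.88 RPKM in delta, 5.32 ± 0.326 in alpha and 128 ± 37.5 in beta libraries (delta over beta -2.35, SE 0.23, adjusted p = 4.14e-05 by limma). Ppp1r14c, another PP1 inhibitor, averaged 1.25 ± 0.0746 RPKM in delta, 0.0619 ± 0.0347 in alpha and 0.0164 ± 0.0209 in beta libraries (1.15, adjusted p = 4.16e-06 by limma). Bod1, an inhibitor of PP2A, was lower than in beta cells (-0.33, adjusted p = 0.0159 by limma), and the catalytic subunit Ppp1ca, at 132 RPKM in delta, 120 in alpha and 147 in beta libraries, was not called against beta cells.

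Other surface antigens used on islet cells were set beside Cd24a. Of 22 tested, 11 were higher and 5 lower in delta cells than in beta cells (median 0.69), and 15 higher and 0 lower than in alpha cells (median 0.85). Without delta replicate 2, 3 were lower against beta cells, and without alpha replicate 1 or with title pairs, 1 was lower against alpha cells. Epcam, an epithelial adhesion protein, averaged 401 ± 16.8 RPKM in delta, 118 ± 10.7 in alpha and 95.4 ± 9.60 in beta libraries (delta over beta 2.06, SE 0.11, adjusted p = 7.92e-07 by limma). Cd200, an immune inhibitory ligand, averaged 82.6 ± 4.0 RPKM in delta, 37.5 ± 1.73 in alpha and 15.7 ± 1.64 in beta libraries (2.32, SE 0.11, adjusted p = 3.41e-07 by limma). Slc2a2, which carries glucose into mouse beta cells, was lower than in beta cells (-4.74), and Bst2 was not called against beta cells (adjusted p = 0.0604 by limma). Cd24a, at 562 RPKM, stood above Epcam in the delta libraries. On the scale of these folds, Cd24a differed by 5.23 (SE 0.31) from beta and by 5.51 (SE 0.34) from alpha libraries, given without a test.

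**Figure D4:**
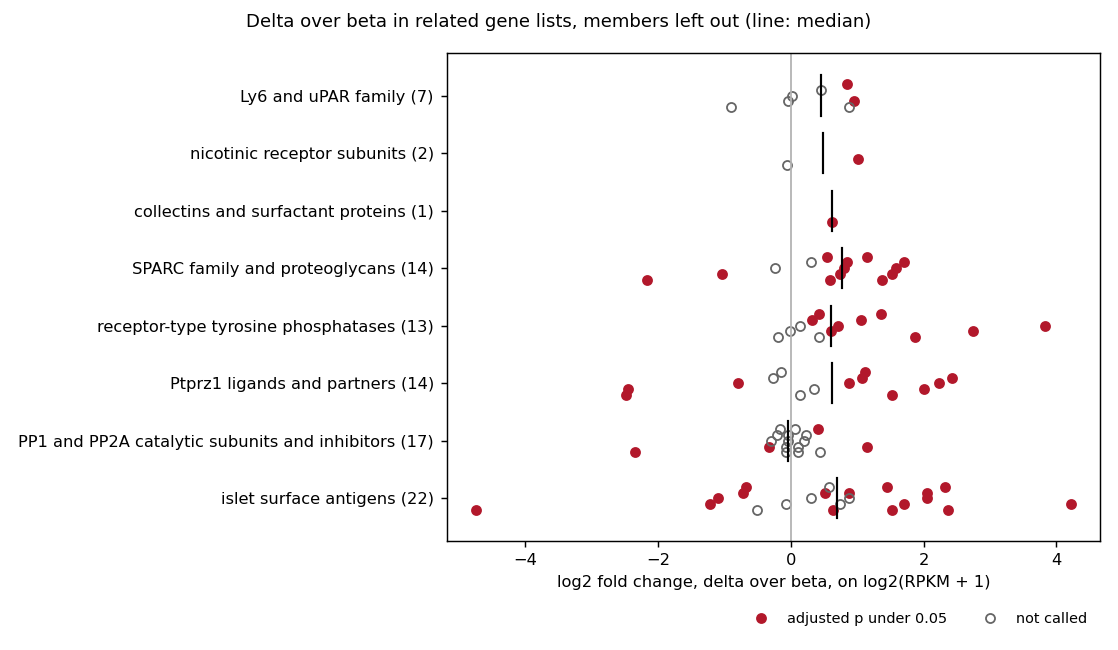
Log2 fold change of delta over beta libraries for each tested gene of the 8 related lists, with filled red points for an adjusted p under 0.05, open points for genes not called and a line at the list's median. The phosphatase receptors reach 3.83 with Ptprk, the PP1 and PP2A list lies around 0, and the surface antigens extend down to -4.74 with Slc2a2.

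Several of the 6 genes are also known from other cells, so markers of those cells were read in the same libraries. The 8 Schwann and glial markers summed to 10.1 to 10.3 RPKM in delta, 4.95 to 5.45 in alpha and 2.32 to 2.92 in beta libraries, with Gfap and Foxd3 at 0 in both of them and Sox10 at a mean of 0.00992 RPKM. The 8 neuron markers summed to 117 to 120 RPKM in delta, 81.1 to 105 in alpha and 102 to 172 in beta libraries, with Chat at 0 in both delta libraries. Of the 5 neuron markers tested, 2 were higher and 1 lower in delta than beta cells, and 3 were higher than in alpha cells. Rbfox3 averaged 3.07 RPKM in delta, 0.208 in alpha and 0.162 in beta libraries, and Elavl4 15.2 RPKM in delta, 6.28 in alpha and 6.52 in beta libraries. The 7 ductal markers summed to 344 to 414 RPKM in delta, 843 to 1951 in alpha and 548 to 715 in beta libraries, while the duct factor Sox9 averaged 3.51 RPKM in delta, 0.152 in alpha and 0.107 in beta libraries. The 8 immune markers summed to 61.3 to 77.6 RPKM in delta, 14.9 to 20.5 in alpha and 76.1 to 154 in beta libraries, with Cd3e and Lyz2 at 0 in both delta libraries and the complement gene C1qa at a mean of 65.6 RPKM in delta, 14.2 in alpha and 28.9 in beta libraries. Acinar markers summed to 377 to 579 RPKM in delta, 65.8 to 2569 in alpha and 162 to 7967 in beta libraries. Endothelial markers stayed at or under 9.70 RPKM and stellate and mesenchymal markers at or under 3.75 RPKM in sum in every library. The part of these cells in the levels of the 6 genes was not tested.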

How the data were processed

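The authors deposited 1 table of RPKM values for 19213 gene entries and 10 libraries, and no other per-sample column was present. The submitters' processing notes name the build GRCm38.p3 and the tools edgeR 3.12.0, featureCounts and STAR 2.4, with no role or order. The TruSeq RNA kit v2, named per the labels' protocols, does not mark strand. Not given in the sources used here are the annotation, the handling of reads that fit several places and any scaling.

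Groups and sexes came from the labels. Library totals of 16688097 to 26684086 reads, and the reads behind each printed value, were recovered from the steps between RPKM values. At such totals 1 read more or less changes a value that rests on few reads by much.

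Genes with at least 1 RPKM in at least 2 libraries (12700) were fitted with limma 3.58.1 (R 4.3.3) as log2(RPKM + 1) on cell type and sex over all 10 libraries, with a mean-variance trend and Benjamini-Hochberg adjustment over all of them, and called at an adjusted p under 0.05. Fold changes on this scale understate the change of low genes. The fit was tested on simulated data. The 6 genes and the lists were chosen with earlier results of these data known. From each list, up to 3 called genes with the smallest adjusted p in delta against beta cells and the uncalled gene with the highest mean RPKM are named, and for each of the 6 genes the 2 with the highest Pearson's r. Related lists leave out the 6 genes.

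Alternatives were a pseudocount of 0.1, no filter, a filter of 5 RPKM, median-ratio scaling, no sex term and leaving out each library. A subtraction of a delta share set by Sst, and pairs of libraries by title number as a block, were chosen after seeing the data. Coordinates are 1-based from GENCODE M21, near-identical transcripts were sought with blastn 2.17.0, and promoter sequences are from RefSeq (GRCm38.p6), which matched 2 of the 6 genes. The levels of some single marker genes are not reported here.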

Additional observations from a re-analysis of the deposited data

Results flagged for a closer look

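Among the beta libraries, Ly6h was the only one of the 6 genes with a library that stood apart, and groups of 2 or 3 libraries were not assessed. Its highest beta value, 0.767 RPKM in beta replicate 5, lay apart from the other 4 beta libraries by 0.771 of the group's whole range. The value rests on 28 reads, and the same library had the highest Sst level of the beta libraries, at 922 RPKM. Chance alone can set a library apart in this way, the more so as 6 genes were looked at, and the cause was not tested.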

How the results depend on the processing

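With a pseudocount of 0.1 or a filter of 5 RPKM, 1 gene was higher in female libraries, and with that filter 479 genes were lower in delta than in alpha cells. Under median-ratio scaling 3094 genes had lower delta than beta levels, and 1857 were higher and 1391 lower than in alpha cells. Leaving out 1 library at a time, genes higher in delta cells than in beta cells numbered 2335 to 4987 and genes lower 938 to 1677. Against alpha cells they numbered 2181 to 4595 and 481 to 787, with the lowest counts without delta replicate 1 or, for genes lower than in alpha cells, delta replicate 2. Genes higher in alpha than in beta cells numbered 1838 (without alpha replicate 3) to 3222, and genes higher in female libraries 1 to 2.

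The Sftpd ratio of lowest delta to highest other library was 67.9 under median-ratio scaling and 80.5 to 99.9 when libraries were left out. The sex difference of Sftpd turned to 0.11 with a pseudocount of 0.1. Over left-out libraries the sex difference spanned -0.040 to 0.061 for Sftpd, -0.14 to 0.028 for Ppp1r17, -0.0097 to 0.23 for Spock3 and -0.015 to 0.26 for Cd24a. A delta share set by Sst was also subtracted from each alpha and beta library, with negative values at 0. Ppp1r17, Ptprz1 and Spock3 were then at 0 in all of these libraries, so no alpha to beta difference remained in them. For Ppp1r17 the fitted value of -0.029 arose from the sex term of the fit. Cd24a was then at 0 in the 3 alpha libraries and at 7.54 to 14.5 RPKM in the 5 beta libraries. Ly6h and Sftpd were also at 0 in the 3 alpha libraries. In beta libraries they reached at most 0.0575 and 0.185 RPKM, with Ly6h at 0 in 3 of 5 and Sftpd in 1. The cause was not tested in any of these. Libraries with consecutive title numbers and the same sex were also taken as pairs and entered as a replicate block, chosen after seeing the data. No label states that they share islets, and over all tested genes the deviations of paired libraries from their group means correlated at 0.00144, 0.372, 0.269 and 0.464. The block left 2 residual degrees of freedom. With it 6169 genes had higher and 1736 lower levels in delta than beta cells, 4749 and 594 against alpha cells, and the alpha to beta differences of Ly6h and Spock3 turned to -0.15 and -0.016. Depth limits the alpha and beta values of Spock3, Ppp1r17, Sftpd and Ly6h, some of which rest on 1 to 10 reads.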

Other observations

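By the ratio of the lowest delta to the highest other library, 2 secreted proteins of the blood stood beside Sftpd and Ppp1r17 among the first 4 of 12700 genes, and they are named here after their values were seen. Masp1, a serine protease that acts with collectins in complement activation, ranked 1 with a ratio of 83.5. It averaged 8.93 ± 0.322 RPKM in delta, 0.0637 ± 0.0413 in alpha and 0.0272 ± 0.0104 in beta libraries (SD, n = 2, 3 and 5). F5, coagulation factor V, ranked 3 with a ratio of 46.8. It averaged 14.4 ± 0.0853 RPKM in delta, 0.215 ± 0.0899 in alpha and 0.117 ± 0.0749 in beta libraries. Both were chosen by these values, so they are given without a test.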
